A study of Mus musculus with 12 samples.

Results

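The effect of losing TYK2 kinase activity was compared between tumour-infiltrating NK cells and CD8 T cells. Within each lineage, the 4 libraries labelled TYK2KO or TYK2KE were set against the 2 WT libraries. The pooled mutant effect of a gene averaged the fitted log2 levels of the TYK2KO and TYK2KE groups and subtracted that of the WT group. The interaction was this effect in NK cells minus the same effect in CD8 T cells, and the common effect was the average of both. All genes of the count table were considered, and 13129 of its 54232 gene identifiers had enough counts to be tested (a mean normalised count of at least 10). The 12 libraries formed 6 groups of 2: NK WT, NK TYK2KO, NK TYK2KE, CD8 WT, CD8 TYK2KO and CD8 TYK2KE. All mice were sex- and age-matched young adults on a C57BL/6N background. TYK2KO mice lack TYK2 in every cell, and TYK2KE mice carry a point mutation that leaves the protein without kinase activity, also in every cell, so that the host around the sorted lymphocytes was mutant too. Each animal carried a subcutaneous tumour of MC38, a mouse colon carcinoma line, started with 1000000 cells per flank. Tumours were taken 8 to 10 days later, and 300 cells per library were sorted as CD45+ CD3ε- NK1.1+ (NK) or CD45+ CD3ε+ CD8a+ (CD8). The labels do not say whether libraries of a group came from separate mice, so p-values measure the spread between these libraries, which may be technical.

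TYK2 is a Janus kinase bound to the receptors for type I interferon, interleukin-12, interleukin-23 and the interleukin-10 family. On ligand binding it and a partner kinase phosphorylate STAT proteins. Type I interferon thereby forms a complex of STAT proteins and IRF9 that binds interferon-stimulated response elements in the promoters of antiviral genes, whereas STAT dimers bind gamma-activated sites. Interleukin-12 signals through TYK2 and STAT4 and is known for raising interferon-gamma and cytotoxicity in both NK cells and CD8 T cells. In the kinase-dead form the scaffold of the protein is kept, while in the knockout it is gone.

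Library totals ranged from 10378761 to 14732882 counts (median 12720184), and 12776 to 14015 genes had a count. A level of 3 counts, taken here as the detection floor, corresponded to 0.219 to 0.275 counts per 1000000 (CPM, on library sizes scaled by the trimmed mean of M-values). The NK markers Klrb1c and Ncr1 were at 839 CPM or more in the 6 NK libraries and at 5.08 CPM or less in the 6 CD8 libraries, and Cd8a and Cd3e showed the opposite split, with 587 CPM or more in CD8 and 51.5 CPM or less in NK. Tyk2 itself did not separate the genotypes: its pooled mutant effect was 0.47 in NK cells and -0.17 in CD8 T cells on the log2 scale, so the direction of every comparison rests on the labels. For TYK2KO alone the Tyk2 effect was 0.31 in NK cells and 0.01 in CD8 T cells, and for TYK2KE alone 0.64 and -0.34. The 19 tested macrophage and monocyte markers did separate the NK libraries. Their summed level was 21006 and 19389 CPM in NK WT, 9386 and 993 in NK TYK2KO and 1763 and 1961 in NK TYK2KE, against 455 to 1188 in the 6 CD8 libraries. With the level of these markers as a covariate, no gene was called in the interaction, the common effect or the NK effect. That covariate itself separated NK WT, at a mean log2 CPM of 8.73 and 8.70, from NK mutants, at 0.0079 to 5.33. In NK cells this fit can therefore hardly tell marker level from genotype. In bulk samples of this kind, fewer cells of a type and less RNA per cell cannot be told apart.

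More genes were called in the common effect than in the interaction, whose standard errors are larger by construction (median over genes 1.86 against 0.92 on the log2 scale). A gene was called at an edgeR false discovery rate (FDR, Benjamini-Hochberg) under 0.05 and a log2 change of at least 1. In the common effect 50 genes were called lower in the mutants (0.381% of the genes tested) and 6 higher (0.0457%). In the interaction 2 genes were called with a more positive effect in NK cells (0.0152%) and 0 with a more negative one (0%), while 319 and 435 genes, respectively, had an unadjusted p under 0.05. The DESeq2 Wald test called 249 genes in the interaction, 102 and 147 in these directions. Within the lineages, 4 genes were called lower in NK mutants (0.0305%) and 0 higher (0%; 286 at an unadjusted p under 0.05, and 139 by DESeq2), and in CD8 mutants 23 were called lower (0.175%) and 5 higher (0.0381%). DESeq2 called 282 lower and 147 higher in common and 169 lower and 138 higher in CD8, a more even split than by edgeR. The common biological coefficient of variation was 109%. Leaving out 1 library at a time gave 0 to 4 calls in the interaction, 12 to 77 in the common effect and 4 to 32 in the CD8 effect, and with the CD8 libraries alone 0 were called in the CD8 effect (smallest edgeR FDR 0.129).

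**Figure D1:**
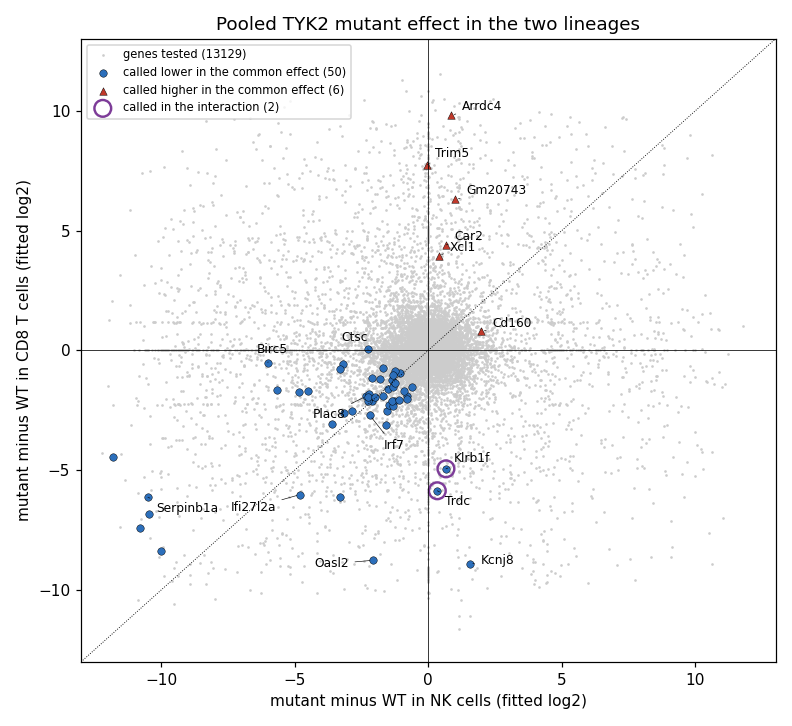
Pooled mutant effect of each tested gene in NK cells (x axis, fitted log2 mutant minus WT) and in CD8 T cells (y axis, same scale), 1 point per gene; blue circles are the 50 genes called lower in the common effect, red triangles the 6 called higher, rings the 2 called in the interaction. Most blue circles lie at negative values of both axes, and the ringed Trdc and Klrb1f lie far down near an NK effect of 0.

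Replicate levels were also compared without a model. All 4 mutant libraries lay below both WT libraries for 10.8% of the genes in NK cells and 7.54% in CD8 T cells, and above both for 7.11% and 6.84%. In both lineages at once, 1.58% of the genes (207) had all mutants below WT and 1.01% (132) had all mutants above. Opposite separation was found for 0.845% (111), of which 66 (0.503%) were below in NK and above in CD8, and 45 (0.343%) were above in NK and below in CD8. Of the 50 genes called lower in common, 40 had the mutants below WT in both lineages, and of the 6 called higher, 3 had them above in both. The common effect is an average, so a call can rest on 1 lineage. The sign was the same in both lineages for 46 of the 50 and 5 of the 6. Of all 56 called, 25 had an unadjusted interaction p under 0.05 by edgeR. The pooled effects of the lineages, which share no library, had a Pearson correlation of 0.064 across all genes tested and 0.28 across the 2032 genes with a mean of at least 100 CPM. Genes are not independent replicates, and these coefficients are descriptive.

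The 2 genes called in the interaction fell in CD8 mutants and did not pass the test in NK mutants. Trdc codes for the constant part of the δ chain of γδ T cell receptors and lies at chr14:54142851-54148868, + strand of GRCm38. In CD8 T cells it was measured at 10.7 and 12.9 CPM in WT, 0.231 and 0.0835 in TYK2KO and 0.250 and 0.221 in TYK2KE. In NK cells it was measured at 112 and 213 CPM in WT, 238 and 312 in TYK2KO and 176 and 132 in TYK2KE. CD8 mutants lay far below CD8 WT without overlap, whereas NK mutants and NK WT overlapped. The 4 CD8 mutant libraries held 10 Trdc counts against 320 in the 2 WT libraries, a depth-adjusted WT-to-mutant ratio of 59.7 (95% exact interval 32.02 to 126), for counting error only. The log2 effects were 0.34 in NK cells and -5.86 in CD8 T cells, and their difference was 6.20 ± 0.62 (SE; edgeR FDR 0.0151). A fitted value with a group at the floor depends on the fit's handling of low counts and is no bound. The exact intervals here and below cover counting error only and leave out the spread between libraries.

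Klrb1f, a C-type lectin-like receptor of the NKR-P1 family, lies at chr6:129045901-129057464, + strand. Its level in CD8 T cells was 29.9 and 21.2 CPM in WT, 0.539 and 0.668 in TYK2KO and 1.75 and 0.516 in TYK2KE. Levels in NK cells were 324 and 453 CPM in WT, 665 and 434 in TYK2KO and 856 and 517 in TYK2KE. All CD8 mutants were below CD8 WT, and in NK cells the mutant range reached into that of WT. The WT-to-mutant ratio of counts in CD8 T cells was 30.002 (95% exact interval 22.04 to 41.8). The interaction was 5.60 ± 0.62 (SE; edgeR FDR 0.0188). Both genes overlap 2 genes on the other strand, and Klrb1f belongs to a multigene family. Whether counting used strand was not stated, so reads from these partners cannot be told apart. Neither gene was called in the interaction without the first or the second NK WT library, the first NK TYK2KE library or the first CD8 WT library, and Klrb1f was not called without either CD8 TYK2KO library. Their estimates ranged from 5.73 to 6.74 (Trdc) and from 5.29 to 6.16 (Klrb1f) over 18 alternatives.

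The summed levels of γδ T cell and NK cell genes in CD8 T cells overlapped between the genotypes, although single members did not. Of the γδ and innate-like T cell genes, 8 were tested, with 1 (Trdc) called lower in the CD8 effect (against 0.175% of all genes), and their sum in CD8 T cells was 285 and 94.8 CPM in WT against 99.6, 154, 700.4 and 213 in the mutants. The δ chain segment Trdv4 was at 0.149 and 0.0730 CPM in CD8 WT and 0.0835 to 0.418 in CD8 mutants. Klrb1c, the antigen of the NK gate, was at 2.31 and 2.34 CPM in CD8 WT and 1.42 to 5.08 in CD8 mutants, and Ncr1 at 1.64 and 1.53 and 1.03 to 2.002. The 25 NK identity genes summed to 10269 and 4151 CPM in CD8 WT and 4081, 5286, 3307 and 5288 in CD8 mutants. All CD8 mutants were below WT for 3 of them and above for 2 (against 7.54% and 6.84% of all genes), and 3 were lower and 3 higher in the CD8 effect at an unadjusted p under 0.05. Klrb1f was the 1 called, and the list's median interaction was 0.65 beside -0.07 over all genes.

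The other genes with the smallest interaction p-values did not pass the threshold and are given as values. Kcnj8, a subunit of ATP-sensitive potassium channels, had CD8 levels of 15.0003 and 19.4 CPM in WT, 0.0770 and 0.167 in TYK2KO and 0 and 0 in TYK2KE. Its NK levels were 25.1 and 14.3 CPM in WT, 44.5 and 78.7 in TYK2KO and 65.1 and 43.6 in TYK2KE. Its 4 CD8 mutant libraries held 3 counts in all, and the WT-to-mutant ratio was 289.6 (95% exact interval 98.5 to 1409). Kcnj8 was called lower in the CD8 effect and in the common effect, although NK mutants lay above NK WT. Nme7, a member of the nucleoside diphosphate kinase family, showed the reverse layout, with NK levels of 0.0833 and 0.0765 CPM in WT, 31.7 and 40.7 in TYK2KO and 19.5 and 43.02 in TYK2KE and CD8 levels of 44.8 and 15.8 CPM in WT, 29.03 and 9.77 in TYK2KO and 22.3 and 27.6 in TYK2KE. The 2 NK WT libraries held 2 Nme7 counts, and the mutant-to-WT ratio in NK cells was 432 (95% exact interval 119 to 3572). Interaction FDRs were 0.114 for Kcnj8, 0.198 for Nme7 and 0.257 for Oasl2, all by edgeR.

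On the negative side of the interaction, the genes with the smallest p-values were Gm20743, Arrdc4, Ctsc, Trim5 and Car2. Of these, Gm20743, Arrdc4 and Trim5 were near or at the floor in CD8 WT and present in CD8 mutants, and Car2 was at low levels above the floor in CD8 WT. Gm20743, a processed transcript at chr1:164863133-164936775, + strand with 3 opposite-strand neighbours, was at 0.299 and 0.146 CPM in WT, 10.4 and 10.02 in TYK2KO and 42.4 and 23.4 in TYK2KE in CD8 T cells. In NK cells it was at 67.3 and 69.4 CPM in WT, 123 and 183 in TYK2KO and 151 and 98.8 in TYK2KE. Mutants were above WT in both lineages, by 1.02 on the log2 scale in NK and 6.31 in CD8, with an interaction of -5.29 ± 0.72 (SE; edgeR FDR 0.0876). Car2, carbonic anhydrase 2, was at 1.42 and 0.730 CPM in WT, 56.1 and 17.04 in TYK2KO and 14.3 and 14.3 in TYK2KE in CD8 T cells. Its NK levels were 692 and 510.1 CPM in WT, 923 and 893 in TYK2KO and 1024 and 1008 in TYK2KE. Again all mutants exceeded WT in both lineages, and the counts gave mutant-to-WT ratios of 24.01 (95% exact interval 16.6 to 35.99) in CD8 and 1.61 (95% exact interval 1.58 to 1.64) in NK. By edgeR, which includes the spread between libraries, the NK effect had an FDR of 0.697.

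Trim5, a viral restriction factor, was at 0.0746 and 0.146 CPM in WT, 25.6 and 18.6 in TYK2KO and 21.4 and 39.3 in TYK2KE in CD8 T cells. In NK cells it was at 32.8 and 42.7 CPM in WT, 52.5 and 31.03 in TYK2KO and 31.9 and 33.6 in TYK2KE. CD8 WT held 3 Trim5 counts in all, for a mutant-to-WT ratio of 241 (95% exact interval 82.2 to 1168), and the NK groups overlapped. Arrdc4, an α-arrestin, had 1 count in CD8 WT, where the mutants held 24.5 and 37.999 in TYK2KO and 43.4 and 68.9 in TYK2KE CPM, a ratio of 1195 (95% exact interval 214 to 47225). In NK cells Arrdc4 was at 44.4 and 25.6 CPM in WT, 108 and 86.5 in TYK2KO and 15.5 and 67.3 in TYK2KE, with overlap. Interaction FDRs were 0.148, 0.12 and 0.114 for Car2, Trim5 and Arrdc4 by edgeR. Of the 50 genes with the smallest interaction p-values, 31 had at least 1 group at or below the floor, beside 3852 of the 13129 genes tested and 417 of the 754 with an unadjusted interaction p under 0.05.

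**Figure D2:**
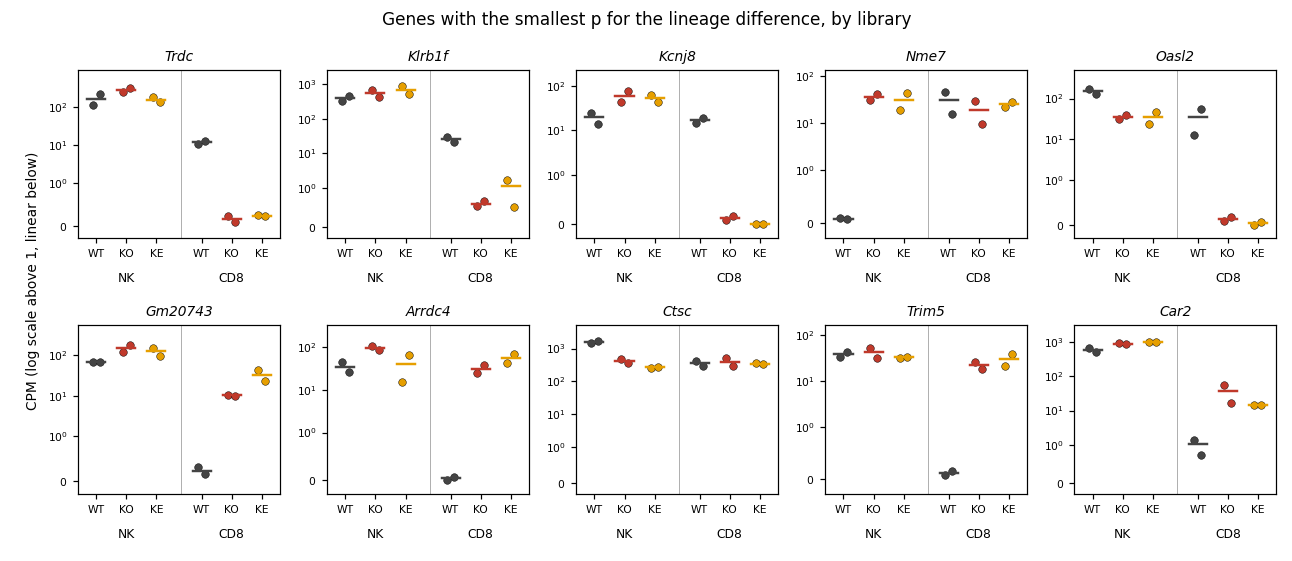
Level of the genes with the smallest interaction p-values in each library (CPM, log scale above 1 and linear below), with 1 point per WT, TYK2KO (KO) and TYK2KE (KE) library of NK cells and CD8 T cells and a bar at each group mean. Trdc and Klrb1f drop below 2 CPM in the CD8 mutants and lie within the WT range or above it in the NK mutants, and for Ctsc the NK WT libraries lie above the other points.

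In NK cells the 4 genes called lower were Plac8, Serpinb1a, Ctsc and Birc5. Ctsc, the protease that activates granzymes and is also made by myeloid cells, lies at chr7:88278085-88310888, + strand. NK levels were 1504 and 1691 CPM in WT, 465 and 371 in TYK2KO and 257 and 280.3 in TYK2KE. CD8 levels were 427 and 291 CPM in WT, 509.8 and 289.9 in TYK2KO and 352 and 336 in TYK2KE. NK mutants were all below NK WT while the CD8 groups overlapped, and the log2 effects were -2.25 in NK cells and 0.05 in CD8 T cells. The difference of -2.30 ± 0.35 (SE) missed the threshold at an edgeR FDR of 0.114. Macrophage and monocyte transcripts moved the same way in NK cells: all 4 mutants were below both WT for 17 of the 19 markers there (against 10.8% of all genes) and for 2 of 19 in CD8 (against 7.54%), and the list's median log2 effect was -4.92 in NK (-5.15 with levels under the floor set to it), -0.59 in CD8 and -3.54 in the interaction. Their part in the Ctsc result was not tested. The lysosomal protease Ctss, itself on this list, was the 1 called in the common effect, at 2828 and 3399 CPM in WT, 878 and 242 in TYK2KO and 168 and 249 in TYK2KE in NK cells and 306 and 622 CPM in WT, 299 and 278 in TYK2KO and 425 and 235 in TYK2KE in CD8 T cells.

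Birc5 encodes survivin, a chromosomal passenger protein of dividing cells. It was at 20.7 and 3.59 CPM in WT, 0.464 and 0.294 in TYK2KO and 0.0918 and 0.0742 in TYK2KE in NK cells and 183 and 303 CPM in WT, 183 and 299.8 in TYK2KO and 161 and 80.02 in TYK2KE in CD8 T cells. NK WT was above NK mutants, yet far below every CD8 library. NK mutants held 12 counts against 295 in NK WT, a WT-to-mutant ratio of 49.9 (95% exact interval 28.1 to 97.7), beside 1.37 (95% exact interval 1.33 to 1.41) in CD8, and the interaction did not pass (edgeR FDR 0.249). These intervals are for counting error only, and the CD8 effect had an unadjusted p of 0.40 by edgeR. The cell cycle list of 36 tested genes had 1 called lower in the NK effect (against 0.0305% of all genes) and in the common effect (against 0.381%), Birc5 in each, with median log2 effects of -1.77 in NK and -0.14 in CD8. Its median interaction was -1.75 (-1.25 with levels under the floor set to it), and 8 genes had an unadjusted interaction p under 0.05, all negative. All mutants were below both WT for 8 of 36 genes in NK (22.2%, against 10.8% of all genes) and for 2 in CD8 (5.56%, against 7.54%). The summed level of the list in NK cells overlapped between genotypes, at 1914 and 1464 CPM in WT, 1617 and 1747 in TYK2KO and 1357 and 1709 in TYK2KE, and 7 of the 36 genes were at or below the floor in NK mutants against 1 in NK WT. The macrophage and monocyte sum was lower in the same NK mutant libraries, and its part in the list's median was not tested. Over the alternatives tried, the list's median interaction ranged from -2.27 to -0.14.

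**Figure D3:**
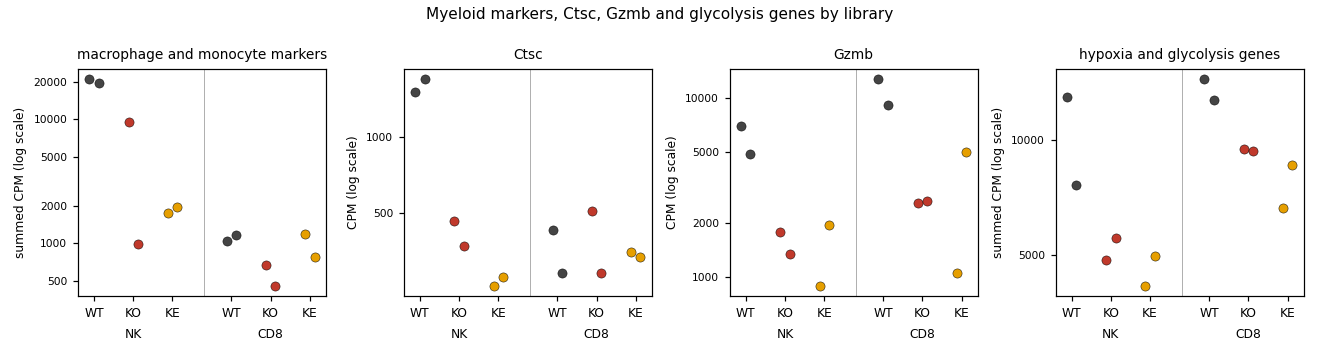
Summed level of macrophage and monocyte markers, level of Ctsc and Gzmb, and summed level of hypoxia and glycolysis genes in each library (CPM, log scale), with 1 point per library. NK WT stands highest for the myeloid sum and for Ctsc, with the first TYK2KO library at 9386 CPM next in the myeloid sum, while Gzmb and the glycolysis sum are lower in mutants of both lineages.

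Interferon-related genes made up 25 of the 50 genes that fell in common. Of 197 tested genes on any of 12 interferon-related lists, these 25 were 12.7% of the lists' genes beside 0.381% of all genes tested, and 1 (Trim5) was called higher. The lists came in part from a compilation of the study and in part from general knowledge. On the lists of the study alone, with 108 tested genes, 9 of the 50 were found (against 0.381% of all genes called lower). In CD8 T cells 14 of the 197 genes were called lower (against 0.175% of all genes), in NK cells 0 (against 0.0305%), and in the interaction 0 in either direction (against 0.0152% and 0%). The median log2 effect over the 197 genes was -0.84 in NK and -1.04 in CD8 (all genes: -0.05 and 0.00), and the median interaction was 0.11. All 4 mutants were below both WT for 91 genes in NK (46.2%, against 10.8% of all genes), 91 in CD8 (46.2%, against 7.54%) and 55 in both (27.9%, against 1.58%). The macrophage and monocyte sum was lower in the same NK mutant libraries. Its part in the NK values of these genes and of the interferon families below was not tested. At an unadjusted interaction p under 0.05, 16 had a more positive effect in NK cells than in CD8 T cells and 14 a more negative one. These 14 include Trim5, which rose in CD8 mutants. The NK and CD8 effects of the 197 genes had a Pearson correlation of 0.39, given as a description.

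**Figure D4:**
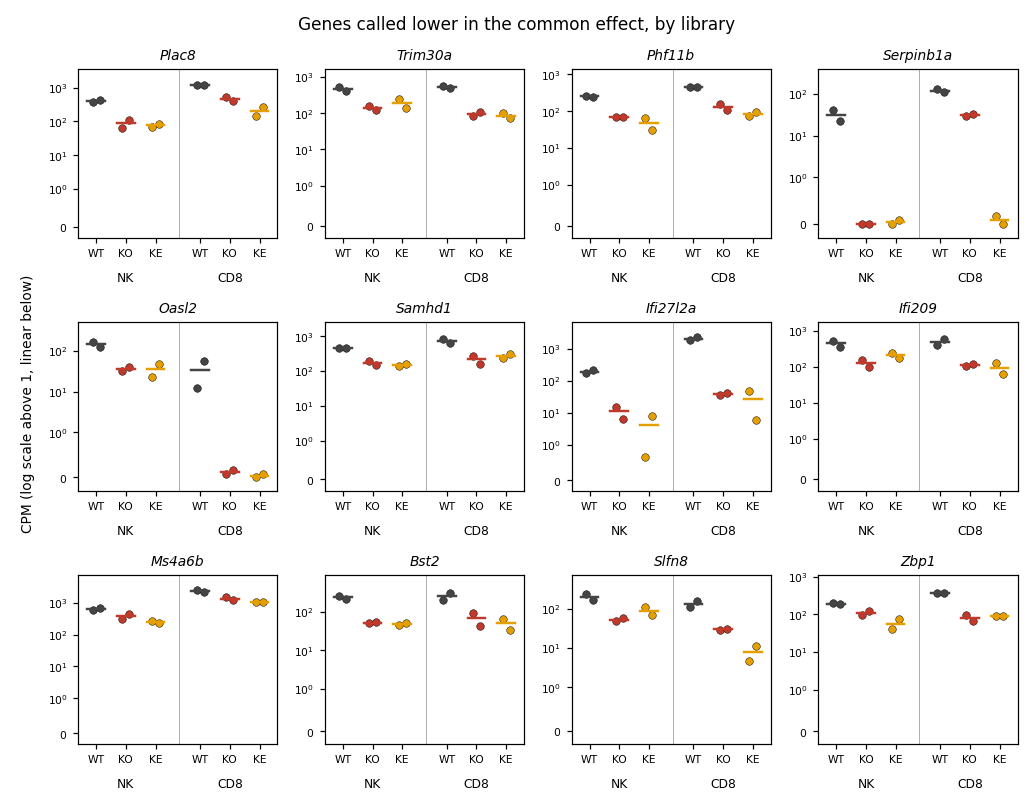
Level of the 12 genes with the smallest p-values among those called lower in common with the same sign in both lineages, which leaves out Trdc, in each library (CPM, log scale above 1 and linear below), with 1 point per WT, TYK2KO (KO) and TYK2KE (KE) library of NK cells and CD8 T cells and a bar at each group mean. In all 12 panels the 4 mutant libraries lie below both WT libraries of the same lineage.

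The promoters of the genes called lower were searched for the interferon-stimulated response element core GAAANNGAAA on both strands, in windows of 300 bases around the RefSeq gene starts of GRCm38.p6 (250 before to 50 after). It was found for 9 of the 40 genes with a window (22.5%), against 368 of 9296 tested genes (3.96%) and 1079 of 27025 in the whole table (3.99%). Among genes called lower in CD8 it was found for 5 of 18 (27.8%) and among those called lower in NK for 0 of 3. The gamma-activated site core TTCNNNGAA was in the windows of 8 of the 40 (20%) and of 778 of the 9296 tested genes (8.37%). Windows of Bst2 and Phf11b, which fell alike in both lineages, and of Slfn8 and Trim30a, with the larger CD8 values, are shown on the gene's strand, 5′ to 3′, with the element in capitals, followed by that of Trim5, which rose in CD8 mutants. In Slfn8, Trim30a and Trim5 the element lies on the other strand.
Bst2, chr8:71537567-71537622: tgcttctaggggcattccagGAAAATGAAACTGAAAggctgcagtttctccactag
Phf11b, chr14:59341351-59341400: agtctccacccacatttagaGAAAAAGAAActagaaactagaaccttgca
Slfn8, chr11:83020829-83020878: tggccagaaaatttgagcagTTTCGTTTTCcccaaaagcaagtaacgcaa
Trim30a, chr7:104465200-104465249: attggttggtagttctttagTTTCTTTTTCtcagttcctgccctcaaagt
Trim5, chr7:104288126-104288175: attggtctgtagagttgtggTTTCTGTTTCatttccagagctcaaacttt
The same letters are thus present near the start of genes that fell and of a gene that rose. A match is a description of the sequence and does not show binding.

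Of 36 antiviral effectors tested, 10 were called lower in common (against 0.381% of all genes), 6 in the CD8 effect (against 0.175%) and 0 in the NK effect (against 0.0305%) by edgeR, where 27 had a lower NK value at an unadjusted p under 0.05. All 36 had a negative common effect, and 20 had all mutants below WT in both lineages (against 1.58% of all genes). The list's median log2 effect was -3.26 in NK and -2.98 in CD8 (-3.52 and -2.27 with levels under the floor set to it), and its median interaction was -0.19, with the other sign in 1 of 18 alternatives. Ifi27l2a, a mitochondrial interferon-induced protein, was at 168 and 215 CPM in WT, 15.3 and 6.40 in TYK2KO and 0.643 and 7.79 in TYK2KE in NK cells and 1880.3 and 2219.5 CPM in WT, 34.3 and 40.4 in TYK2KO and 47.6 and 5.75 in TYK2KE in CD8 T cells. The mutants were far below WT in both lineages, although CD8 WT started from a higher level than NK WT. Its common effect was -5.42 ± 0.60 (SE; edgeR FDR 0.00438). Phf11b, a PHD finger protein induced by interferon, was at 257 and 243 CPM in WT, 68.3 and 70.2 in TYK2KO and 66.1 and 31.2 in TYK2KE in NK cells and 459 and 455 CPM in WT, 155 and 106 in TYK2KO and 74.4 and 94.5 in TYK2KE in CD8 T cells. Here the effects of -2.11 in NK cells and -2.12 in CD8 T cells were nearly equal, with a difference of 0.02 ± 0.45 (SE).

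Samhd1, a dNTP hydrolase that limits viral replication, was at 473 and 451 CPM in WT, 194 and 154 in TYK2KO and 142 and 158 in TYK2KE in NK cells and 846 and 625 CPM in WT, 267 and 164 in TYK2KO and 235 and 315 in TYK2KE in CD8 T cells. Bst2, the virus-tethering protein tetherin, was at 270.5 and 216 CPM in WT, 50.4 and 55.2 in TYK2KO and 45.4 and 51.6 in TYK2KE in NK cells and 209.9 and 307 CPM in WT, 95.6 and 44.01 in TYK2KO and 67.4 and 33.9 in TYK2KE in CD8 T cells. Neither gene showed overlap between mutants and WT, and the interactions were 0.08 ± 0.35 and -0.14 ± 0.55 (SE). Oasl2, an oligoadenylate synthetase-like protein, was at 170.4 and 128 CPM in WT, 31.4 and 39.4 in TYK2KO and 23.5 and 47.9 in TYK2KE in NK cells and 12.5 and 56.4 CPM in WT, 0.0770 and 0.167 in TYK2KO and 0 and 0.0737 in TYK2KE in CD8 T cells. Its CD8 mutants held 4 counts in all against 940 in WT, and the WT-to-mutant ratio was 438 (95% exact interval 171 to 1611) in CD8 and 4.10 (95% exact interval 3.87 to 4.33) in NK. Bst2 is also on the dendritic cell list, whose sum in NK libraries was 3912 and 7514 CPM in WT and 6424, 765, 447 and 812 in the mutants. The part of those cells in the Bst2 result was not tested.

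Families of interferon-induced proteins also held genes called lower in common, against 0.381% of all genes. Of the p200 family, which senses DNA in the nucleus and cytosol, 3 of 11 tested members (Ifi209, Ifi214 and Ifi206) were called lower in common and 8 had the mutants below WT in both lineages, against 1.58% of all genes. Ifi209 was at 529.7 and 351 CPM in WT, 156 and 96.9 in TYK2KO and 234 and 174 in TYK2KE in NK cells and 406 and 569 CPM in WT, 104 and 117 in TYK2KO and 122 and 64.03 in TYK2KE in CD8 T cells. Of the guanylate-binding and immunity-related GTPases, which attack vacuoles of intracellular pathogens, 3 of 18 (Iigp1, Irgm1 and Gbp9) were called lower in common, and the medians were -0.73 in NK and -1.45 in CD8. Among Schlafen proteins 2 of 8 (Slfn8 and Slfn1) were called. Slfn8 was at 237 and 168 CPM in WT, 48.7 and 56.3 in TYK2KO and 108 and 68.2 in TYK2KE in NK cells and 109 and 160.3 CPM in WT, 28.3 and 30.9 in TYK2KO and 4.67 and 11.3 in TYK2KE in CD8 T cells, and its effects were -1.57 in NK cells and -3.13 in CD8 T cells. Slfn1 had the other order, with -4.82 in NK cells and -1.72 in CD8 T cells. Neither difference passed the interaction test (edgeR FDR 0.852 for each). These families hold near-identical copies, among which reads can be split or lost in counting.

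Few regulators upstream of these genes were called. Of 13 interferon-regulatory transcription factors tested, 1 was called lower in common (against 0.381% of all genes). This was Irf7, the factor that amplifies type I interferon responses, at 604 and 449 CPM in WT, 96.04 and 102 in TYK2KO and 125 and 146 in TYK2KE in NK cells and 309 and 301 CPM in WT, 52.7 and 19.96 in TYK2KO and 100.3 and 18.5 in TYK2KE in CD8 T cells. Mutants and WT did not overlap in either lineage, and the common effect was -2.45 ± 0.38 (SE; edgeR FDR 0.0251). Irf9, the DNA-binding part of the interferon-activated complex, had effects of -0.90 in NK cells and -0.97 in CD8 T cells and did not pass (edgeR FDR 0.323). Stat2 was at 27.6 and 81.7 CPM in WT, 52.5 and 43.2 in TYK2KO and 38.5 and 32.4 in TYK2KE in NK cells and 182 and 125 CPM in WT, 30.03 and 41.1 in TYK2KO and 7.26 and 39.6 in TYK2KE in CD8 T cells. Its groups overlapped in NK cells and were apart in CD8 T cells, with an interaction of 2.00 ± 0.95 (SE; edgeR FDR 0.875). Usp18, which shuts off signalling at the type I interferon receptor, was called lower in common, at 280.1 and 275 CPM in WT, 7.82 and 69.04 in TYK2KO and 24.6 and 17.4 in TYK2KE in NK cells and 318 and 242 CPM in WT, 1.39 and 12.8 in TYK2KO and 4.42 and 0.147 in TYK2KE in CD8 T cells. Of the 11 tested TYK2-coupled cytokine receptor genes and of the 11 Janus kinases and STAT proteins, 0 were called in the common effect by edgeR, and the lowest FDR among the receptors was 0.0536 for Il10ra.

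MHC class I antigen processing showed small shifts. Of 22 tested genes, 0 were called in the common effect by edgeR, where the medians were -0.23 in NK and -0.21 in CD8, although 18 of 22 were negative and 7 were negative at an unadjusted p under 0.05. B2m, the light chain of class I molecules, was at 10989 and 9697 CPM in WT, 8135 and 6563 in TYK2KO and 7929.7 and 7802 in TYK2KE in NK cells and 11275 and 11583 CPM in WT, 9073 and 8189 in TYK2KO and 8025 and 9438 in TYK2KE in CD8 T cells. All mutants were below WT in both lineages, by -0.44 in NK cells and -0.40 in CD8 T cells on the log2 scale (common edgeR FDR 0.0591).

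Several called genes had a larger estimated loss in CD8 T cells, without a called interaction. Among the 50 genes called lower in common, the drop was larger in CD8 for 23 and larger in NK for 27. Trim30a, an interferon-induced regulator of inflammatory signalling at chr7:104409025-104465193, - strand, was at 546 and 401 CPM in WT, 159.7 and 119.7 in TYK2KO and 245 and 137 in TYK2KE in NK cells and 549 and 495 CPM in WT, 83.2 and 105 in TYK2KO and 99.4 and 72.5 in TYK2KE in CD8 T cells. The Z-nucleic acid sensor Zbp1 was at 198 and 183 CPM in WT, 94.3 and 123 in TYK2KO and 39.5 and 73.6 in TYK2KE in NK cells and 364 and 360.5 CPM in WT, 95.6 and 64.4 in TYK2KO and 87.5 and 88.7 in TYK2KE in CD8 T cells. For both genes the mutants were below WT in each lineage, and the interactions were 1.00 ± 0.40 (SE; edgeR FDR 0.852) and 0.83 ± 0.43 (SE; edgeR FDR 0.903). Ly6c2, a surface protein of effector and memory CD8 T cells, was at 4773 and 2904 CPM in WT, 604 and 896 in TYK2KO and 1225 and 1598 in TYK2KE in CD8 T cells and 327 and 503 CPM in WT, 209 and 201 in TYK2KO and 261 and 293 in TYK2KE in NK cells. Its effects were -0.80 in NK cells and -1.90 in CD8 T cells. Xaf1, Isg20, Lgals9 and Samd9l were likewise called in CD8 and in common, with CD8 effects of -2.32, -2.07, -1.53 and -2.01 and NK effects of -1.32, -1.11, -0.60 and -0.81. Interaction FDRs of these 4 genes were 0.852 to 0.886 by edgeR.

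Outside the interferon lists, the gene with the smallest common p-value was Plac8, a small cysteine-rich protein, at chr5:100553725-100572245, - strand. It was at 387 and 430.0 CPM in WT, 62.6 and 113 in TYK2KO and 69.7 and 82.8 in TYK2KE in NK cells and 1159 and 1174 CPM in WT, 538 and 389.6 in TYK2KO and 149 and 265 in TYK2KE in CD8 T cells. It was the 1 gene called lower in NK, in CD8 and in common, by -2.32, -1.91 and -2.12 on the log2 scale. Serpinb1a, an inhibitor of granule proteases, was at 41.3 and 22.2 CPM in WT, 0 and 0 in TYK2KO and 0 and 0.0742 in TYK2KE in NK cells and 128 and 108 CPM in WT, 29.4 and 32.7 in TYK2KO and 0.167 and 0 in TYK2KE in CD8 T cells. Its NK mutants held 1 count in all, a WT-to-mutant ratio of 1595 (95% exact interval 286 to 63096), while in CD8 T cells the TYK2KO libraries kept a measurable level and the TYK2KE libraries were at the floor. Ms4a6b, a membrane protein of the MS4A family, was at 600.3 and 699 CPM in WT, 308 and 444 in TYK2KO and 273 and 242 in TYK2KE in NK cells and 2524 and 2211 CPM in WT, 1499 and 1224 in TYK2KO and 1078 and 1091 in TYK2KE in CD8 T cells, with effects of -1.06 in NK cells and -0.96 in CD8 T cells. Among the called genes known from myeloid cells, named here after their values were seen, the endosomal receptor Tlr13 was at 77.2 and 104 CPM in NK WT and 0 to 0.816 in NK mutants, and at 10.4 and 15.2 CPM in CD8 WT and 0 to 0.417 in CD8 mutants. The complement receptor C5ar1 was at 59.3 and 126 CPM in NK WT and 0 to 0.519 in NK mutants. In CD8 T cells C5ar1 was at 16.6 and 0.0730 CPM in WT and 0 to 0.0835 in the mutants, so that its CD8 level rests on 1 WT library. Both genes were near 0 in all NK mutants, including the first TYK2KO library, where the macrophage and monocyte sum was 9386 CPM. The part of those transcripts was not tested.

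Of 19 tested cytotoxic granule genes, 2 (Gzmb and Ctsc) were called lower in common (against 0.381% of all genes). Ctsc was lower in NK cells only, with log2 effects of -2.25 in NK cells and 0.05 in CD8 T cells. Gzmb, the main apoptosis-inducing granzyme, was at 6970.3 and 4847 CPM in WT, 1779 and 1336 in TYK2KO and 887 and 1943 in TYK2KE in NK cells and 12835 and 9155 CPM in WT, 2593 and 2661 in TYK2KO and 1055 and 4975 in TYK2KE in CD8 T cells. No mutant library reached the WT range of its lineage. The effects of -1.99 in NK cells and -1.97 in CD8 T cells differed by -0.03 ± 0.70 (SE), and the common effect was -1.98 ± 0.33 (SE; edgeR FDR 0.0347). Prf1, the pore-forming perforin, was at 2884 and 1841 CPM in WT, 1426 and 1228 in TYK2KO and 832 and 1829 in TYK2KE in NK cells and 659.8 and 796 CPM in WT, 844 and 343 in TYK2KO and 297 and 674 in TYK2KE in CD8 T cells. Prf1 groups overlapped in CD8, were apart in NK, and the common effect did not pass (edgeR FDR 0.532). Ifng, which encodes interferon-gamma, had effects of 0.59 in NK cells and 1.39 in CD8 T cells and an edgeR FDR of 0.49 in common. In CD8 T cells all mutants lay above WT, at 567 and 353 in TYK2KO and 609.8 and 388 in TYK2KE against 207 and 159 CPM.

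Of 33 hypoxia and glycolysis genes tested, 32 had a negative common effect and 14 had all mutants below WT in both lineages (42.4%, against 1.58% of all genes), while 2 (Tpi1 and Slc2a1) were called lower in common (against 0.381%). By edgeR 0 were called in the NK effect and 0 in the CD8 effect, where 17 and 14 were negative at an unadjusted p under 0.05. The median log2 effect was -1.18 in NK and -0.80 in CD8, and the median interaction of -0.36 had the other sign in 1 of 18 alternatives. Tpi1, the glycolytic triosephosphate isomerase, was at 1199 and 639 CPM in WT, 413 and 427 in TYK2KO and 302 and 423 in TYK2KE in NK cells and 1599 and 1328 CPM in WT, 938 and 847 in TYK2KO and 652 and 782 in TYK2KE in CD8 T cells. Slc2a1, the glucose transporter GLUT1, was at 519.6 and 256 CPM in WT, 236 and 240.4 in TYK2KO and 95.2 and 126 in TYK2KE in NK cells and 559 and 319 CPM in WT, 247 and 188 in TYK2KO and 126 and 138 in TYK2KE in CD8 T cells. For Tpi1 and Slc2a1 mutants and WT did not overlap in either lineage. Gapdh passed the FDR but not the fold threshold, with a common effect of -0.90 ± 0.15 (SE; edgeR FDR 0.031). The macrophage and monocyte sum moved with this list in NK cells, and its part was not tested there. In CD8 libraries, where myeloid markers summed to 1049 and 1179 CPM in WT and 455 to 1188 in mutants, the glycolysis sum was 14472 and 12722 CPM in WT and 6636 to 9507 in mutants.

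The oxidative phosphorylation list and the MYC and ribosome biogenesis list leaned the other way, with small medians and no called gene. Of 23 oxidative phosphorylation genes, 22 had a positive common effect, with medians of 0.10 in NK and 0.26 in CD8, and all mutants exceeded WT for 8 in CD8 (against 6.84% of all genes) and 2 in NK (against 7.11%). Of 28 MYC and ribosome biogenesis genes, 24 were positive, with medians of 0.16 and 0.24. By edgeR 0 genes of either list were called in the common effect, where 2 and 4 were positive at an unadjusted p under 0.05.

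Apart from Gm20743, Car2, Arrdc4 and Trim5, the genes called higher in common were Cd160 and Xcl1. Cd160, a receptor of cytotoxic lymphocytes with costimulatory and inhibitory partners, was at 63.5 and 47.5 CPM in WT, 291 and 156 in TYK2KO and 169 and 268 in TYK2KE in NK cells and 221 and 284 CPM in WT, 543 and 416 in TYK2KO and 439.8 and 355 in TYK2KE in CD8 T cells. It was higher in every mutant library than in WT of the same lineage, with effects of 1.99 in NK cells and 0.79 in CD8 T cells and a common effect of 1.39 ± 0.23 (SE; edgeR FDR 0.0324). Xcl1, a chemokine that attracts cross-presenting dendritic cells, was at 522 and 904 CPM in WT, 699 and 873 in TYK2KO and 699 and 1519.8 in TYK2KE in NK cells and 21.4 and 32.9 CPM in WT, 199 and 194 in TYK2KO and 1435 and 377 in TYK2KE in CD8 T cells. NK groups overlapped for Xcl1 and CD8 groups did not, and the interaction was -3.57 ± 0.70 (SE; edgeR FDR 0.39). Xcl1, at chr1:164931644-164935527, - strand, lies wholly within Gm20743 on the other strand. Without known strand use in counting, reads of this pair cannot be told apart, and the pair may not be separate calls. The lists of Cd160 and Xcl1 had no common direction: of 17 checkpoint and exhaustion genes tested 1 was called (Cd160), and of 19 secreted cytokines, chemokines and death ligands 1 was called (Xcl1), against 0.0457% of all genes called higher.

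Few genes of the identity lists were called. For 14 group 1 innate lymphoid tissue-resident genes the median effect was 0.58 in NK and -0.42 in CD8, and the median interaction was 1.16, positive under all 18 alternatives. Of these genes 0 were called in the interaction by edgeR, and 3 had an unadjusted p under 0.05. Itgb7, an integrin of tissue homing, was at 439 and 417 CPM in WT, 764 and 611 in TYK2KO and 479 and 578 in TYK2KE in NK cells and 349 and 245 CPM in WT, 94.9 and 129 in TYK2KO and 50.3 and 139 in TYK2KE in CD8 T cells. NK mutants were above NK WT and CD8 mutants below CD8 WT, an opposite separation, with an interaction of 2.02 ± 0.50 (SE; edgeR FDR 0.517). Of 13 NK maturation genes tested, 2 (Ly6c2 and Gzmb) were called lower in common (against 0.381% of all genes). Itgam, the CD11b chain of mature NK cells and myeloid cells, was at 57.4 and 53.8 CPM in WT, 9.13 and 1.84 in TYK2KO and 7.89 and 13.3 in TYK2KE in NK cells, and its common effect did not pass (edgeR FDR 0.188). Of 20 T cell identity genes 0 were called by edgeR in the common effect, where 0 and 2 had an unadjusted p under 0.05 on the negative and positive side. In NK cells, sorted as CD3ε-, their sum was 1523 and 1534 CPM in WT, 2035 and 2159 in TYK2KO and 1881 and 1924 in TYK2KE, higher in every mutant library, with 3 genes higher at an unadjusted p under 0.05. Cd3e was at 8.92 and 7.11 CPM in WT, 9.83 and 51.5 in TYK2KO and 30.7 and 30.7 in TYK2KE in NK cells (edgeR FDR 0.334). In CD8 T cells all mutants were below WT for 4 of the 20, against 7.54% of all genes. The part of T cell transcripts in the NK results was not tested.

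**Figure D5:**
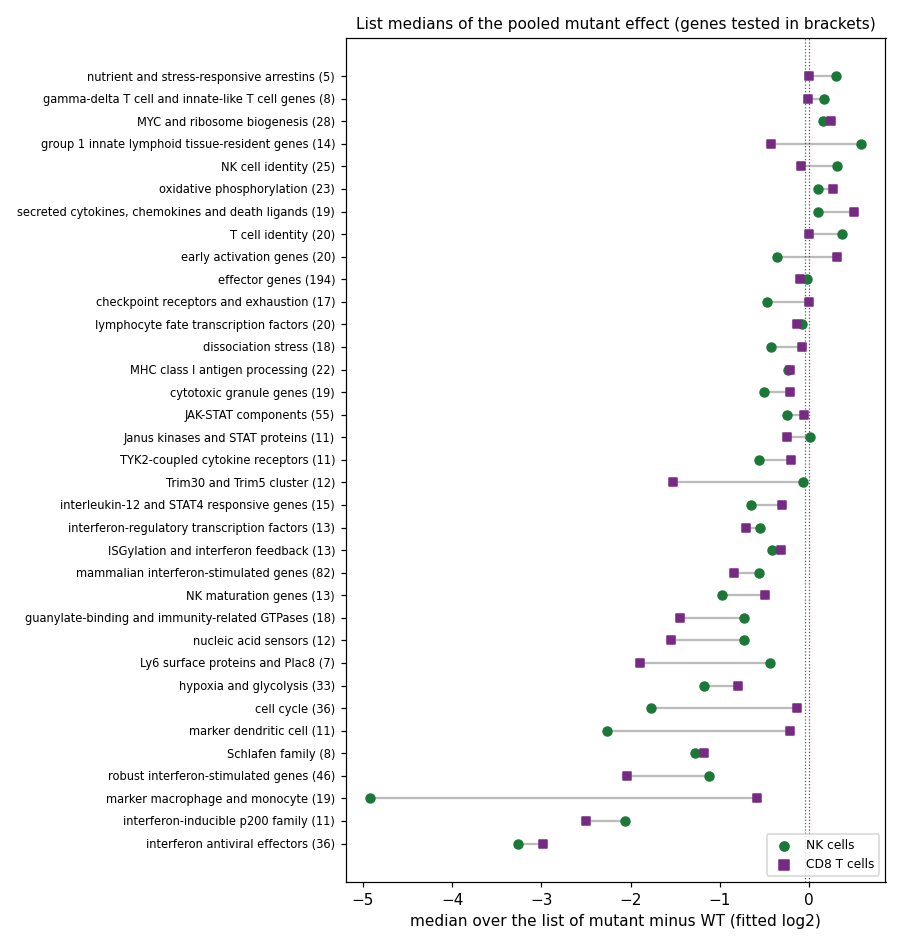
Median pooled mutant effect of each gene list (x axis, fitted log2 mutant minus WT) in NK cells (green circles) and in CD8 T cells (purple squares), with the number of genes tested in brackets. Antiviral effectors and the p200 family lie at similar negative medians in both lineages, whereas the cell cycle list and the macrophage and monocyte markers lie further down in NK cells.

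Taken apart, TYK2KO and TYK2KE are measured against the same WT libraries, and their values are given side by side. For Trdc the interaction was 6.88 with TYK2KO alone and 5.51 with TYK2KE alone, and for Klrb1f 5.89 and 5.32. For Plac8 the NK effects were -2.22 and -2.42 and the CD8 effects -1.33 and -2.50, for TYK2KO and TYK2KE respectively. Ifi27l2a had NK effects of -4.14 and -5.48 and CD8 effects of -5.78 and -6.27. With TYK2KO alone 2 genes were called in the interaction, and with TYK2KE alone 0 (smallest edgeR FDR 0.0604). All of the values with a mutant taken alone rest on 2 libraries a group.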

How the data were processed

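RNA-seq (Smart-seq2 with Nextera libraries, 500 pg RNA input) was read from the table of raw counts per gene that the authors deposited for the 12 libraries. Per the labels and methods, reads were trimmed with Trimmomatic, aligned to GRCm38 with STAR, and unique alignments were counted with summarizeOverlaps on the GENCODE basic annotation; strand use in counting is not given in the sources used here. Names were taken from GENCODE M21. Genes with a mean DESeq2-normalised count of at least 10 entered an edgeR 4.0.16 fit (R 4.3.3, quasi-likelihood, robust, TMM, 6 group means over all 12 libraries), with contrasts for NK, CD8, their average and their difference. The fit was tested on simulated data in which only genes well above the floor in both lineages were changed. That test does not cover genes with a group at the floor. Calls needed an FDR under 0.05 and a log2 change of at least 1. The floor was 3 counts, and floors and intervals cover counting error only. With totals of 10378761 to 14732882 counts, 3852 of the 13129 tested genes had a group at or below the floor.

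Groups came from the labels. The gene lists and comparisons were chosen with earlier results of these data known, and lists are described by counts and medians without a test. Named genes were those with the smallest p in the interaction (at least 5 per direction), in the common effect (up to 12 lower and 8 higher) and within a lineage (up to 5 more), 13 fixed genes, and the leading members of the lists; other called genes were named after their values were seen. Some fixed or listed genes are not reported here. Alternatives were other scaling, no filter, DESeq2 1.42.0, 1 pooled mutant group, a macrophage and monocyte marker covariate, a replicate block, single lineages, raw library totals for the ordering and leaving out each library.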

Additional observations from a re-analysis of the deposited data

Results flagged for a closer look

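The effect of pooled mutant status differed between NK cells and CD8 T cells for 2 genes by the test of the difference itself. Trdc had an interaction of 6.20 on the log2 scale (edgeR FDR 0.0151) and Klrb1f of 5.60 (edgeR FDR 0.0188). In both, all 4 CD8 mutant libraries were below both CD8 WT libraries, and in NK cells mutants and WT overlapped. Both overlap genes on the other strand, and the part of these in the values was not tested. No group had the 4 to 10 samples that the search for outlying libraries needs.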

How the results depend on the processing

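Calls moved with the processing, and apart from the smaller designs the cause was not tested. In place of 2, 56, 4 and 28 calls (interaction, common, NK and CD8), an unfiltered table of 23707 genes gave 180, 402, 374 and 209, the DESeq2 Wald test 249, 429, 433 and 307, and the myeloid marker covariate 0, 0, 0 and 14. In NK cells that covariate was itself separated by genotype. All genes called by edgeR were also called by DESeq2 and without the filter, and no called value changed sign under any alternative. As 1 mutant group, TYK2KO and TYK2KE gave 19 calls in NK cells and 54 in common, of which 43 were shared with the 56. With the libraries of 1 lineage alone, 2 genes were called in NK and 0 in CD8 (smallest FDR 0.129 by edgeR). Other size factors gave 2, 62, 4 and 28 calls. On raw library totals 162 rather than 207 genes had mutants below WT in both lineages.

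Leaving out 1 library gave 0 to 4 calls in the interaction, 12 to 77 in common, 0 to 25 in NK and 4 to 32 in CD8. The common count was 12 without NK WT 1, 13 without CD8 WT 1, 24 without NK TYK2KE 1, 29 without NK TYK2KE 2 or CD8 TYK2KO 1, 30 without CD8 TYK2KO 2, 31 without NK TYK2KO 2 and 32 without NK WT 2.

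With the replicate number as a block, 2, 31, 1 and 17 genes were called. Equal numbers do not pair these samples, since deviations from group means correlated at -0.026 to 0.037 over 15 pairs of groups.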
